A study of Mus musculus with 6 samples.

Results

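The 9 intermediate filament genes Gfap, Vim, Nes, Synm, Ina, Nefl, Nefm, Nefh and Prph were followed in cells sorted from the adult mouse subventricular zone. They were picked by gene symbol, each symbol having 1 row among the 55487 genes of the deposited table, and 17278 genes in all passed a filter of at least 10 normalized counts in at least 3 samples. Of the 9 genes, 4 form a glial and stem set (Gfap, Vim, Nes and Synm) and 5 a neuronal set (Ina, Nefl, Nefm, Nefh and Prph). All members of the first set and 4 of the second passed the filter, and Nefh did not.

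The subventricular zone lines the lateral ventricles and holds neural stem cells that resemble astrocytes. TKO mice were Rb(F/F);p107(-/-);p130(F/F) and THC mice were Rb(F/+);p107(+/-);p130(F/+), so in THC cells 1 allele of each of these genes was left intact. Both groups carried NestinCreERT2, a tamoxifen-inducible Cre recombinase under Nestin regulatory sequence, and an R26 EYFP reporter, on a mixed C57BL/6;Sv/129 background. Tamoxifen was given by gavage at 200 mg/kg per day for 5 days to mice aged 6 to 10 weeks, and the tissue was collected 10 days after the last dose. There were 3 TKO and 3 THC samples, each a pool of mice that gave at least 200000 sorted YFP-positive cells. The sort therefore takes cells in which the Nestin-driven Cre was active, and their descendants, and Nes itself is among the genes measured. TKO 1 and THC 1 belong to a February batch, and TKO 2, TKO 3, THC 2 and THC 3 to a November batch.

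Intermediate filaments are cytoskeletal fibres built from a family of coiled-coil proteins, and each cell type uses its own mixture. Gfap and Vim form the filaments of astrocytes, Nes is the filament protein of neural stem and progenitor cells, and Synm is a large partner that joins Vim filaments. In neurons, Nefl, Nefm and Nefh are the light, medium and heavy neurofilament proteins, Ina encodes alpha-internexin, which appears early in neuronal differentiation, and Prph encodes peripherin, best known from peripheral neurons. In astrocytes, Gfap and Vim are known to increase in the reactive state that follows injury.

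The windows around the RefSeq start sites of the 4 genes that passed the test between genotypes are shown first, since they are the genes on which the results turn. Each runs from 250 bases before the start site to 50 bases after it (GRCm38.p6), and 6 of the 9 genes had such a window. The capitals mark the only matches to the 4 motifs searched on both strands, TTCNNNGAA in Gfap and TATAAA in Vim and Prph. Gfap lies at chr11:102897151-102897450 on the minus strand, Vim at chr2:13574061-13574360 on the plus strand, Nes at chr3:87970843-87971142 on the plus strand and Prph at chr15:99054924-99055223 on the plus strand.
Gfap: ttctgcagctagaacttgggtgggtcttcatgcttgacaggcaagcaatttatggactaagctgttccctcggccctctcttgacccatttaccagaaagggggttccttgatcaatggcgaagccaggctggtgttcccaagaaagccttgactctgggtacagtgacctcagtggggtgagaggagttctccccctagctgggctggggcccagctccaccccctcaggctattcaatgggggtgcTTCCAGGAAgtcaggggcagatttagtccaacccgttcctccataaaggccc
Vim: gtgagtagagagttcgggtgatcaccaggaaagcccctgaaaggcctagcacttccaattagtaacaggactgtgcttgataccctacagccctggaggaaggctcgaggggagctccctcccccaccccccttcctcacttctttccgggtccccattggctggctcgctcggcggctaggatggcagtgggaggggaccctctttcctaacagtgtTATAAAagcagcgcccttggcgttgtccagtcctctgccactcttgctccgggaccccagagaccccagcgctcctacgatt
Nes: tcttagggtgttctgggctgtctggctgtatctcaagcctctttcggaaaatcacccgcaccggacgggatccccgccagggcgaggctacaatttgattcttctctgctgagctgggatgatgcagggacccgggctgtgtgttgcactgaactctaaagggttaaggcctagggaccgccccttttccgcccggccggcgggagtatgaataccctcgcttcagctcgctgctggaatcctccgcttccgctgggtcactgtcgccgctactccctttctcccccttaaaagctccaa
Prph: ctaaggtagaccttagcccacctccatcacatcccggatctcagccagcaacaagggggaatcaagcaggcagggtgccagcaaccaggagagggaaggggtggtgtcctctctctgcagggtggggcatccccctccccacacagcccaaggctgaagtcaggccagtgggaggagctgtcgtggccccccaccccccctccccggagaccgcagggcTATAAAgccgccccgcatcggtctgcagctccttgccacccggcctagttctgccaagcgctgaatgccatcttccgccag

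The STAT-type word TTCCAGGAA begins 2 bases before the Gfap start site, and TTCNNNGAA occurs in 8.30% of 32851 promoter windows. TATAAA begins 32 bases before the start site of Vim and 31 bases before that of Prph, and occurs in 13.6% of windows. None of the 6 windows held an E2F word (TTTGGCGC, TTTCCCGC, TTTCGCGC or TTTGCCGC, in 2.26% of windows) or the cell-cycle word TTTGAA (in 17.9%). The windows of Nes, Synm and Ina held none of the 4 motifs. No match overlapped another motif. Such matches describe letters in these windows and were not tested for binding.

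Gfap, Vim, Nes and Prph rose in TKO cells, and none of the 9 genes was called lower. In the glial and stem set, Gfap and Vim were each about 4-fold higher (4.02-fold and 4.03-fold) and Nes was 2.31-fold higher, while Synm did not pass the test. In the neuronal set, Prph was 12.4-fold higher from a low level, and Ina, Nefl and Nefm did not pass. Of the 9 genes, 4 were called higher at an adjusted p under 0.05 (limma, Benjamini-Hochberg adjustment over 17278 genes), where 14.3% of all genes tested were called higher and 13.6% lower (27.9% in all). The 0 called lower was also 0 at an unadjusted p under 0.05, and edgeR on recovered reads called 4 higher and 0 lower, with 27.7% of all genes called. Prph is among the 4 although it passed the filter through its TKO values alone, so the count describes the genes and supports nothing further. In 5 of the 9, every TKO sample was above every THC sample, against 19.4% of all genes tested. In bulk samples such as these, a change in the share of cells that express a gene and a change in RNA per cell cannot be told apart.

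Recovered depth was 15536084 to 16961817 reads per sample, and 16858 to 17513 genes per sample reached 10 normalized counts. Rbl1, which encodes p107, averaged 24.9 ± 14.9 normalized counts in TKO and 554 ± 80.5 in THC samples (SD, n = 3 each), a log2 change of -4.56 (limma adjusted p = 2.3e-06). Rb1 was higher in TKO samples (log2 change 0.82, limma adjusted p = 0.00066) and Rbl2 did not pass (-0.13, limma adjusted p = 0.54). Whole-gene counts do not check recombination of the floxed Rb and p130 alleles. Xist, transcribed from the inactive X chromosome, had 0 normalized counts in TKO 1 and 944 to 2047 in the other 5 samples, so the sex makeup of the pools was not matched, and its part in the filament results was not tested. P-values measure the spread between these pools.

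**Figure D1:**
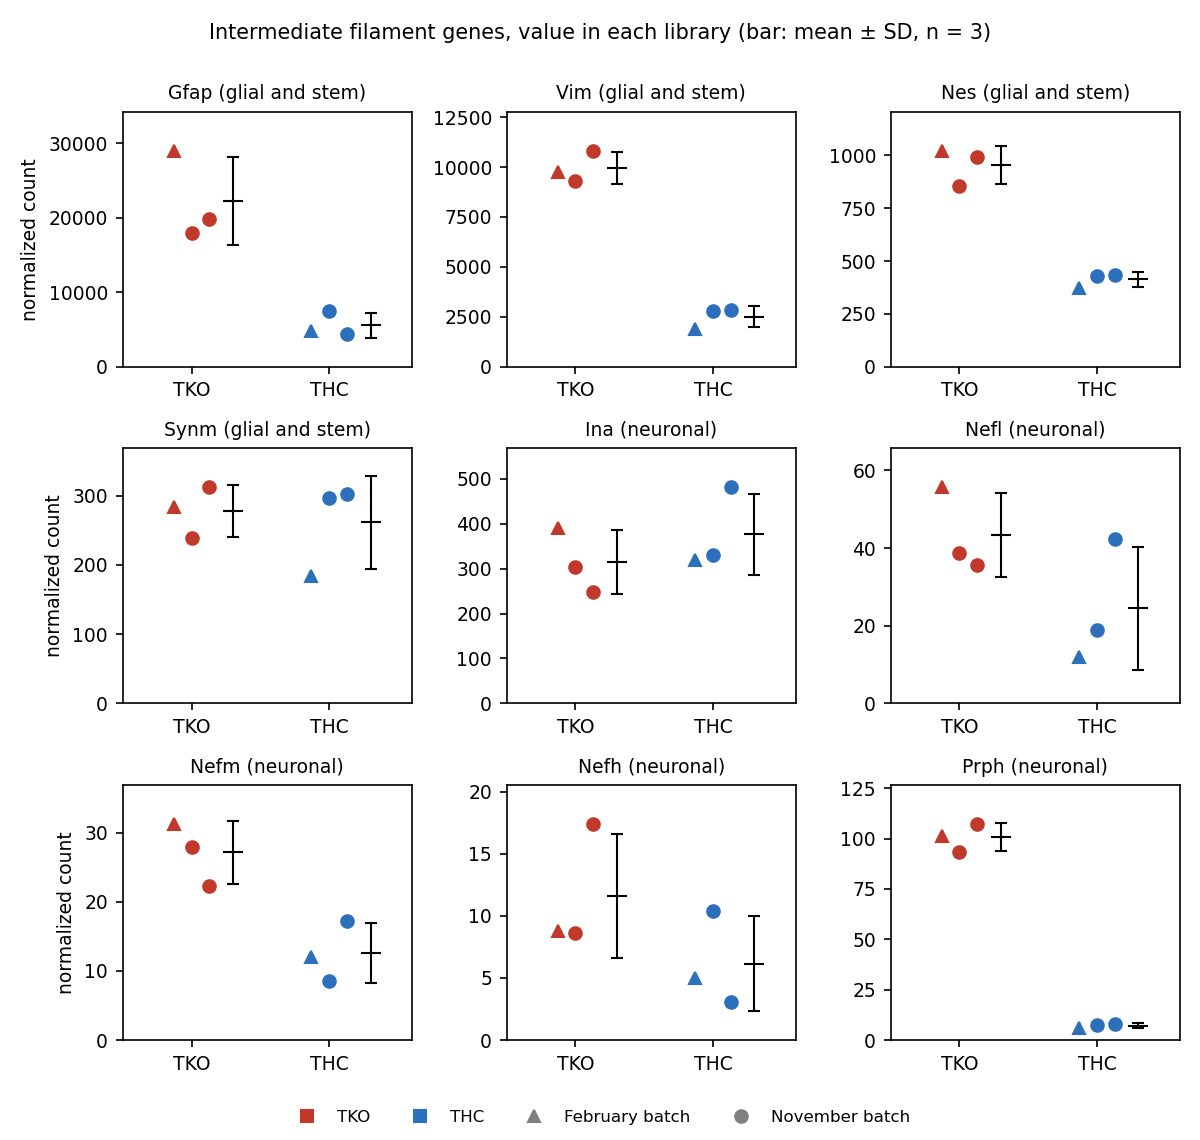
Normalized count of each filament gene in each sample (linear axes starting at 0, TKO left of THC, bars at the mean with SD, n = 3 each). Gfap, Vim, Nes, Prph and Nefm have every TKO sample above every THC sample, and the 2 genotypes overlap for Synm, Ina, Nefl and Nefh.

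Gfap (ENSMUSG00000020932, GRCm38 chromosome 11, 102887336 to 102900912, minus strand) encodes the main filament protein of mature astrocytes and is also used by adult neural stem cells. It had 28980.4, 17885 and 19812 normalized counts in TKO samples 1 to 3, against 4748, 7494 and 4447 in THC samples 1 to 3. Every TKO sample was above every THC sample, and the February TKO sample was the highest of all. The log2 change was 2.01 (SE 0.23, limma adjusted p = 4.7e-05). It was 2.61 between the February samples and 1.71 between the November samples.

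Vim (chromosome 2, 13573927 to 13582826, plus strand) encodes vimentin, which is shared by stem cells, immature glia and cells of mesenchymal origin. Its values were 9769, 9279 and 10823 normalized counts in TKO samples, against 1888, 2776 and 2864 in THC samples. The genotypes did not overlap, and the TKO samples differed among themselves less than those of Gfap did, with a coefficient of variation of 7.92% in TKO and 21.5% in THC samples, against 26.7% and 30.2% for Gfap. The log2 change of Vim was 2.01 (SE 0.15, limma adjusted p = 2.9e-06). The February samples gave 2.37 and the November samples 1.83.

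Nes (chromosome 3, 87971078 to 87980451, plus strand) encodes nestin, which assembles only together with other filament proteins such as vimentin. It had 1023, 854 and 993 normalized counts in TKO samples and 373, 429.7 and 436 in THC samples. All TKO values were above all THC values. The log2 change was 1.21 (SE 0.14, limma adjusted p = 6.7e-05), and the February and November batches gave 1.45 and 1.09.

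Synm (chromosome 7, 67730160 to 67759742, minus strand) encodes synemin, which links vimentin filaments to other structures. It had 283, 239 and 312 normalized counts in TKO samples, against 184, 297 and 303 in THC samples. The genotypes overlapped, and the low February THC sample was the one furthest from the rest. Its log2 change of 0.11 (SE 0.20, limma adjusted p = 0.73) was 0.62 in February and -0.14 in November.

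Among the neuronal filament genes, Prph (chromosome 15, 99055174 to 99058978, plus strand) stood apart from the other 4. It had 101.5, 93.5 and 107 normalized counts in TKO samples and 6.01, 7.55 and 8.08 in THC samples. In recovered reads these were 104, 87 and 111 reads in TKO and 6, 8 and 8 reads in THC samples. No TKO sample came near a THC sample. The log2 change was 3.64 (SE 0.37, limma adjusted p = 2.4e-05). It was 3.87 within the February batch and 3.52 within the November batch. Since every THC sample was under the filter's minimum of 10, the gene entered the test only through the TKO samples and had to differ.

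The 3 neurofilament genes were low in every sample. Nefl (chromosome 14, 68083863 to 68089095, plus strand) had 55.6, 38.7 and 35.7 normalized counts in TKO samples, against 12.03, 18.9 and 42.4 in THC samples. THC 3 lay above TKO 2 and TKO 3, so the genotypes overlapped. The log2 change of 0.96 (SE 0.47) did not pass (limma adjusted p = 0.16); without THC 3 it was 1.45, with a limma adjusted p of 0.044. It was 2.12 in February and 0.38 in November.

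Nefm (chromosome 14, 68082590 to 68124846, minus strand) had 31.2, 27.9 and 22.2 normalized counts in TKO samples and 12.03, 8.50 and 17.2 in THC samples. Its genotypes did not overlap, yet the log2 change of 1.09 (SE 0.45) missed the threshold (limma adjusted p = 0.097). By these coordinates Nefl lies within the span of Nefm on the opposite strand, and 1108 bases of their exons overlap, which is 32.8% of the exon length of Nefl and 19.2% of that of Nefm. The libraries did not keep the strand, so how reads in that overlap were assigned is uncertain.

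Nefh (chromosome 11, 4938754 to 4948064, minus strand) had 8.78, 8.60 and 17.4 normalized counts in TKO samples, against 5.01, 10.4 and 3.03 in THC samples. These rest on 8 to 18 reads in TKO and 3 to 11 reads in THC samples, and the genotypes overlap. With no filter on low values its log2 change was 0.88 (SE 0.67, limma adjusted p = 0.50 over 32018 genes). At this depth no difference was detectable.

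Ina (chromosome 19, 47014698 to 47025327, plus strand) was the most abundant neuronal filament transcript by count. It had 389, 304 and 248 normalized counts in TKO samples and 319, 329.6 and 481 in THC samples. The genotypes overlapped, with a log2 change of -0.26 (SE 0.22, limma adjusted p = 0.42). It was 0.29 in February and -0.53 in November. A stretch of 456 bases, 14.1% of its exon length, overlaps exons of Nt5c2 on the other strand, which averaged 1746 normalized counts in TKO and 2046 in THC samples.

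The median log2 change was 1.61 over the 4 glial and stem genes and 1.02 over the 4 neuronal genes that were tested, beside -0.00 over all genes tested. Within the February samples these medians were 1.91 and 1.71, and within the November samples 1.40 and 0.68. The neuronal medians include Prph, which entered the test only through its TKO samples, and leave out Nefh. Ina, Nefl and Nefm, the other genes in them, did not pass the test. Within the neuronal set Ina and Prph differed more than any other pair of filament genes in their pattern over the 6 samples (root mean square distance 1.96 on the log2 scale). The closest pairs were Nes with Nefm (0.32) and Gfap with Vim (0.33), the first crossing the sets.

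In the authors' deposited table Gfap had a log2 fold change of 1.97 (SE 0.36, adjusted p = 8.7e-07), Vim 2.01 (SE 0.15, adjusted p = 3.8e-38), Nes 1.21 (SE 0.17, adjusted p = 1.2e-11) and Prph 3.81 (SE 0.49, adjusted p = 1.3e-13). In the authors' deposited table the other 5 had adjusted p-values of 0.28 to 0.94, and 15% of the genes with a value were under 0.05.

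The difference was larger in February than in November for 8 of the 9 genes, Nefh being the exception, where 49.9% of all genes tested had a larger February difference. Each batch's value rests on few samples, with 1 sample per genotype in February and 2 per genotype in November. Of the 8 genes tested, 0 passed a test of the genotype by batch interaction (limma, 2 residual degrees of freedom, adjusted p 0.75 or more), and 59 of 17278 genes, 0.341%, did. At an unadjusted p under 0.05 it was again 0 of 8, against 6.97% of all genes. The largest interactions were those of Nefl, 1.74 on the log2 scale, and Gfap, 0.90 (limma adjusted p = 0.78 for both). The edgeR test on recovered reads called 0 of the 8 and 0.463% of all genes, and again 0 of the 8 at an unadjusted p under 0.05, against 7.06% of all genes.

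Levels can be set side by side once divided by exon length. In RPKM, which here is recovered reads scaled to exon length and to the assigned reads of the sample, Gfap reached 324 ± 86.3 in TKO and 81.9 ± 25.2 in THC samples, and Vim 129 ± 14.3 in TKO and 32.9 ± 7.46 in THC samples (SD, n = 3 each). Exon length, here and in the values below, counts all annotated exons of a gene. With the length of the longest transcript instead, Gfap was at 517 in TKO and 130 in THC samples. Vim was then at 210 in TKO and 53.3 in THC samples. The order of the 9 genes was the same with either length. Genes other than Gfap and Vim were far lower in both genotypes. Nes stood at 9.19 ± 1.05 in TKO and 3.997 ± 0.390 in THC samples, and Ina at 5.95 ± 1.28 in TKO and 7.22 ± 1.81 in THC samples.

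On this per-length scale the order in TKO samples was Gfap, Vim, Nes, Ina, Prph, Synm, Nefl, Nefm and Nefh. In THC samples it was Gfap, Vim, Ina, Nes, Synm, Nefl, Prph, Nefm and Nefh. The ranges of neighbours in this order did not overlap in TKO samples except for Nefm and Nefh. In THC samples the lowest 4 genes, Nefl, Prph, Nefm and Nefh, each overlapped the next in the order, and the other neighbours did not overlap. Prph was above Synm and Nefl in TKO samples, at 3.11 ± 0.30 RPKM, and below both in THC samples, at 0.224 ± 0.036 RPKM.

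**Figure D2:**
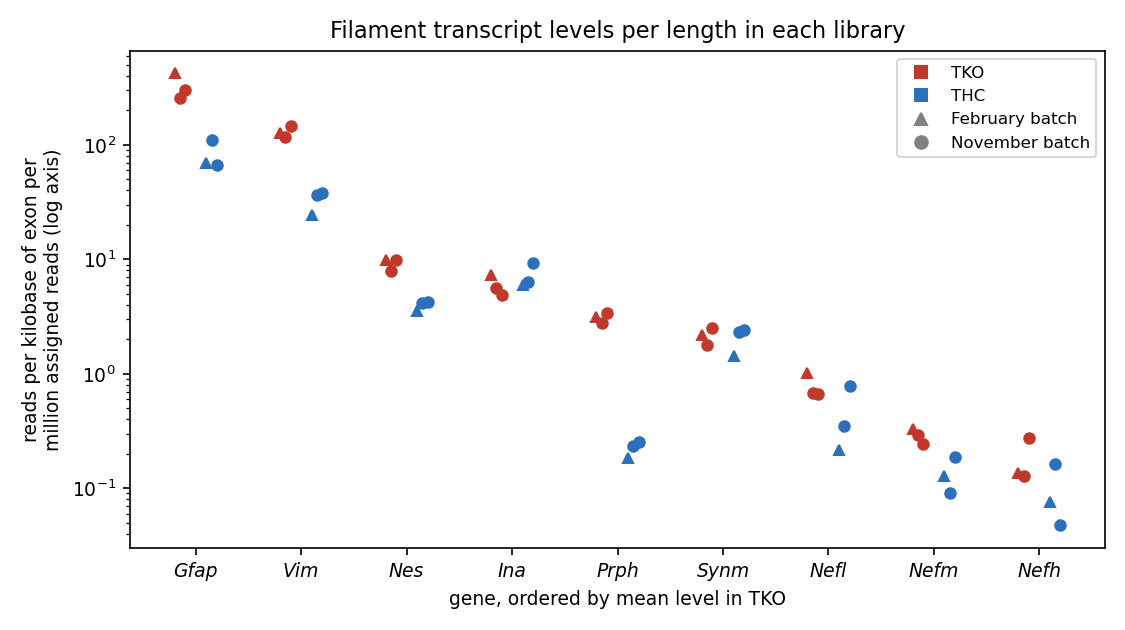
RPKM of each filament gene in each sample (log axis, genes ordered by mean level in TKO, TKO left of THC, n = 3 each). Gfap and Vim lie above all other filament genes in every sample, and Nefh is lowest by mean in both genotypes.

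As shares of the summed per-length level of the 9 genes, Gfap made up 67.6% ± 5.28 in TKO and 63.0% ± 7.51 in THC samples, and Vim 27.8% ± 4.93 in TKO and 25.7% ± 4.79 in THC samples (SD, n = 3 each). The ratio of Gfap to Vim was 2.52 ± 0.71 in TKO and 2.54 ± 0.69 in THC samples, a difference far smaller than the spread. The 5 neuronal genes together made up 2.04% to 2.44% in TKO and 4.46% to 8.73% in THC samples, with no overlap. The summed level of all 9 was 390 to 571 RPKM in TKO and 105 to 161 RPKM in THC samples. No neuronal filament gene was called lower.

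Outside the 9, 15 of 19 other filament genes were measured, of which 6 were called higher and 1 lower, with a median log2 change of 0.65. Of all genes tested, 14.3% were called higher and 13.6% lower. The lamins, filament proteins of the nucleus, rose: Lmna by 1.52 (limma adjusted p = 5.4e-05), Lmnb1 by 1.43 (2.8e-05) and Lmnb2 by 0.86 (0.00099). Krt8, a keratin of simple epithelia, had 363, 249 and 292 normalized counts in TKO samples, against 19.0, 80.3 and 68.7 in THC samples, a log2 change of 2.63 (limma adjusted p = 0.00039). Its usual partner Krt18 overlapped between genotypes (0.65, limma adjusted p = 0.37), and its November value was -0.39. Krt80 and Krt19 were called higher as well, but entered the test only through the TKO samples; without TKO 1, Krt80 had a limma adjusted p of 0.054 and Krt19 of 0.22. Krt19 was not called either without THC 1, THC 3, TKO 2 or TKO 3 (limma adjusted p 0.086 to 0.17). Bfsp2, a lens filament gene, fell by 1.20 (limma adjusted p = 0.015) and was not called without THC 1, THC 3, TKO 1 or TKO 3 (0.064, 0.075, 0.0503 and 0.054). Des, a muscle filament gene, had a log2 change of -1.18 (limma adjusted p = 0.070) and was called without THC 1 or TKO 1 (0.016 and 0.015).

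Of the genes that link filaments to other structures, 7 of 10 were measured. Among the 7, 0 were called higher and 2 lower, beside 14.3% and 13.6% of all genes tested. The count at an adjusted p under 0.05 was 1 without any one of THC 1, THC 2, TKO 1 and TKO 2. Jup, a junction protein, had a log2 change of -0.68 (limma adjusted p = 0.0095). Plec, the plectin linker, did not pass (0.36, limma adjusted p = 0.15).

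Of 24 genes of filament modification and turnover, all measured, 8 were called higher and 8 lower. Among all genes tested, 14.3% were called higher and 13.6% lower. Cdk1 and Aurkb, mitotic kinases that phosphorylate vimentin, rose by 1.67 (limma adjusted p = 2.7e-05) and 1.502 (3.0e-05). Padi2, which converts arginine to citrulline in Gfap among other proteins, fell by 1.44 (limma adjusted p = 0.00032). The list's median log2 change was 0.09, and 5 were called lower without THC 1.

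Of 11 partners of filaments in axons, 2 were called higher (18.2%) and 4 lower (36.4%), with a median of -0.13. Over all genes tested, 14.3% were called higher and 13.6% lower. The kinesin motor Kif5a fell by 0.84 (limma adjusted p = 0.0019), and Map1b, a microtubule-associated protein of growing axons, by 0.70 (0.0021). Without THC 1 or TKO 1, 2 were called lower. Without THC 2 or TKO 3, 0 were called higher.

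Gfap transcription is known to respond to cytokines that act through the gp130 receptor and STAT3. A list of 27 genes known to act upstream of Gfap held these ligands, receptors and signal proteins, and also nuclear factor I, Smad and Notch pathway genes, Ep300 and Dnmt1. Of the 27, 26 were measured. Among the 26, 10 were called higher and 3 lower, with a median log2 change of 0.22. The shares over all genes tested were 14.3% higher and 13.6% lower. Of the 10, Nfia, Nfic, Smad5, Hes1 and Dnmt1 are not part of the gp130 pathway. The list was not divided by whether a gene raises or lowers Gfap, so its count has no direction for Gfap. The cytokine Il6 had 275, 74.2 and 159 normalized counts in TKO samples, against 10.0, 2.83 and 2.02 in THC samples, a log2 change of 4.89 (limma adjusted p = 7.7e-06). Lif, another ligand of that receptor family, had 109, 95.6 and 126 in TKO and 15.04, 17.0 and 9.09 in THC samples (2.95, limma adjusted p = 9.5e-05). For both, all TKO samples were above all THC samples. Among the THC samples of Il6, only THC 1 reached the filter's minimum of 10. Il6 thus passed the filter through its TKO samples, and its place in the count supports nothing further.

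At the receptor and signal level the changes went both ways. Osmr, an oncostatin M receptor subunit, rose by 1.75 (limma adjusted p = 0.00036), whereas the receptor subunits Lifr and Cntfr fell by 0.83 and 1.17 (limma adjusted p = 0.0019 and 0.00054). Stat3 had a log2 change of -0.01 and the shared receptor subunit Il6st of -0.04 (limma adjusted p = 0.97 and 0.86). Stat3, Il6st, Osmr, Lifr and Cntfr were chosen for their role after their values were seen.

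Genes of the reactive astrocyte state, for which Gfap and Vim are classic markers, were listed without those 2. Of the 35, 32 were measured, and 20 were called higher and 2 lower, with a median log2 change of 0.99. Over all genes tested the shares were 14.3% higher and 13.6% lower. Tgm1, among those called higher, had 5.01, 12.3 and 6.06 normalized counts in THC samples and passed the filter through its TKO samples. Cxcl10, a chemokine, rose by 4.79 (limma adjusted p = 9.6e-07), Emp1, a membrane protein, by 2.92 (1.0e-06) and Psmb8, an immunoproteasome subunit, by 3.30 (2.5e-06). Several listed genes, Cxcl10 and Psmb8 among them, are also known as interferon-responsive. Leaving out a sample gave 17 to 21 called higher, and the number called lower was 4 without THC 1, 5 without TKO 1, and 0 without THC 2 or TKO 2.

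Markers of the cell types that the sort could hold were counted beside these results. Over all genes tested, 14.3% were called higher and 13.6% lower. For astrocytes, 0 of 10 markers were called higher and 4 lower (7 without THC 3), with a summed level of 122787 to 156608 normalized counts in TKO and 154212 to 269598 in THC samples. Aldoc, a glycolytic enzyme of astrocytes, had 9639.6, 5931 and 6359 normalized counts in TKO samples and 39337, 41210.4 and 29615 in THC samples. It fell by 2.35 (limma adjusted p = 4.1e-06), while Gfap rose in the same samples. Slc1a3, a glutamate transporter, and Sox9, a glial transcription factor, had log2 changes of 0.00 and -0.01 (limma adjusted p = 0.99 and 0.98), named after their values were seen.

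Neuronal markers bear on the neuronal set. The shares over all genes tested were 14.3% called higher and 13.6% lower. Of 10 neuroblast markers, 7 were called lower and 0 higher, with sums of 25566 to 33988 normalized counts in TKO and 38199 to 54975 in THC samples. Of 8 mature neuron markers measured from 10, 4 were lower and 0 higher, with sums of 1359 to 1432 in TKO and 2062 to 3017 in THC samples. Prph rose in the same samples.

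Other cells that use vimentin were also counted. As above, 14.3% of all genes tested were called higher and 13.6% lower. Of 8 endothelial markers 7 were lower, of 8 mural markers 6, and of 8 oligodendrocyte markers all 8, with 0 higher in each list. Their sums did not overlap: 2814 to 3837 in TKO and 6110 to 14207 in THC samples for endothelial, 3961 to 6683 in TKO and 10955 to 17023 in THC samples for mural, and 16991 to 28037 in TKO and 94200 to 101853 in THC samples for oligodendrocyte markers. Of 6 fibroblast markers 1 was higher (2 without THC 1 or TKO 1, 0 without THC 3 or TKO 3) and 1 lower (0 without any one of the November samples), with sums of 3360 to 6011 in TKO and 1784 to 8043 in THC samples. Of 8 microglia markers 3 were called higher, 6 without THC 2, with sums of 1388 to 6048 in TKO and 985 to 4100 in THC samples. Of 7 ependymal markers measured 1 was called higher and 3 lower, and 0 higher without THC 1 or TKO 1 and 1 lower without any one of the 4 November samples, with sums of 6232 to 8231 in TKO and 4538 to 14936 in THC samples. No marker was at 0 in every sample. The part of these cells in the filament results was not tested.

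**Figure D3:**
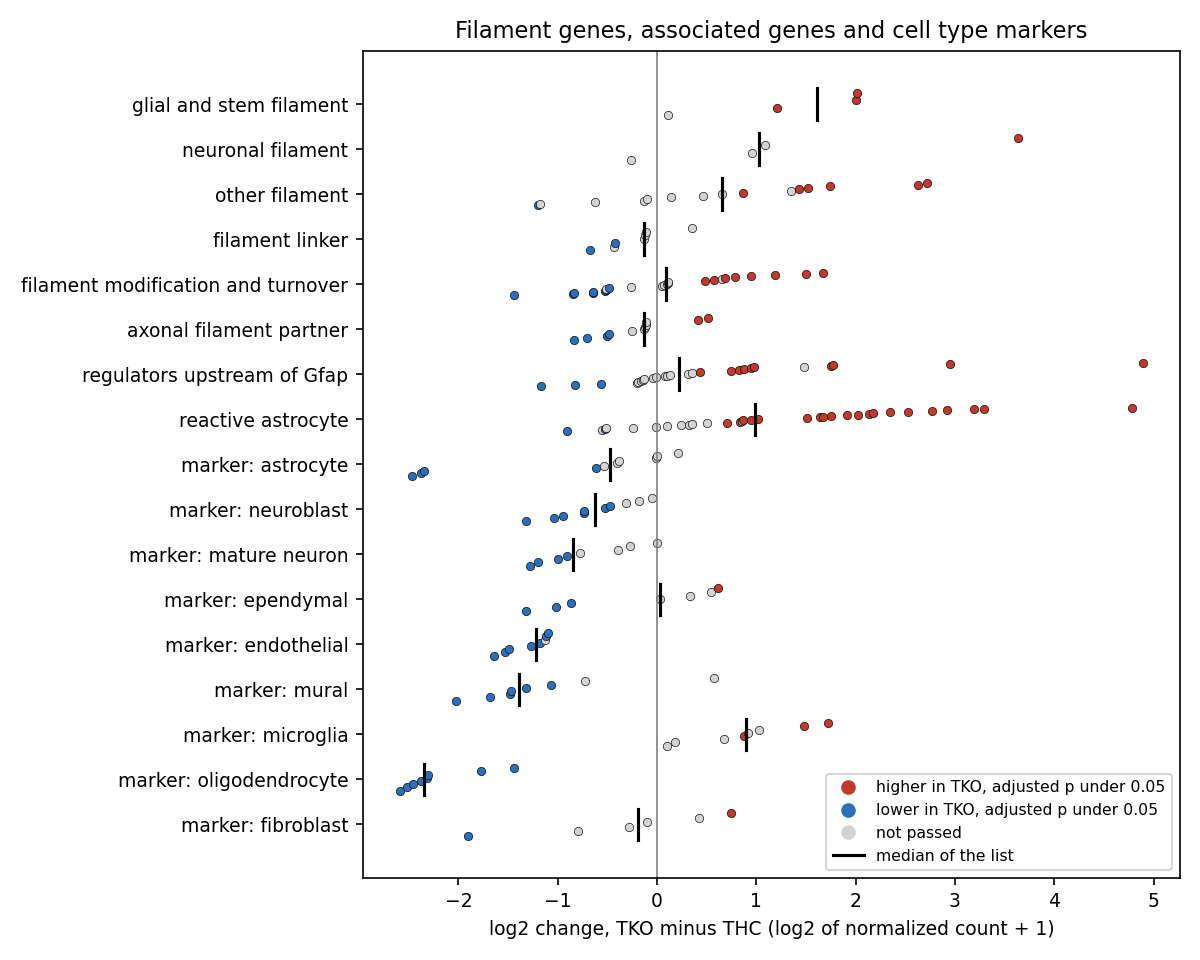
Log2 change (TKO minus THC) of each measured gene in the filament sets, the filament-associated lists and the cell type marker lists, with each list's median. The glial and stem set has the highest median of the lists shown, 1.61, and the oligodendrocyte markers the lowest, -2.35.

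The genes whose values over the 6 samples were most like those of a filament gene were found by the root mean square distance of log2 values, each gene centred on its own mean, among 11905 genes with a mean of at least 100 normalized counts. For Gfap they were Dusp5, a phosphatase (0.17), Stom (0.20) and Ephx1 (0.20). For Vim they were Kif14, a mitotic kinesin (0.10), Neurl1b (0.11) and Fam81a (0.13). For Nes they were Cchcr1 (0.05), Itprip (0.06) and Chek2, a DNA damage checkpoint kinase (0.07).

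The neurofilament genes had less close neighbours in the case of Nefl. Its nearest were Gm18194 (0.29), Kif27 (0.30) and Tcerg1l (0.30), and those of Nefm were Tubd1 (0.10), Cep72 (0.12) and Eri1 (0.12). With 6 samples in 2 genotypes, these distances mostly describe the size of the genotype difference.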

How the data were processed

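RNA-seq libraries of 3 TKO and 3 THC pools of sorted cells were compared. Per the labels' protocols, RNA with a quality number of at least 8.0 and an input of at least 35 ng was amplified with SMART-Seq v4 and made into Nextera XT libraries, which do not keep the strand. HISAT2, featureCounts, Subread, DESeq2 and GRCm38 are named, per the submitters' processing notes; their versions and the read filters were not stated in the sources used. The authors' deposited table holds a normalized count per sample, a signal scaled by 1 factor per sample. Its log2 fold changes and standard errors, Wald score, p-values and adjusted p-values are the authors' own, per the file headers.

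Every deposited value was a whole multiple of a step per sample (100% of values within 0.001 of a read), so reads could be recovered. A count test was not the main test, since the deposited values are normalized. limma (3.58.1, R 4.3.3) was run with an intensity trend on log2(value + 1), with batch and genotype in the design, on genes with at least 10 in at least 3 samples, and Benjamini-Hochberg adjustment over 17278 genes at 0.05. A pseudocount of 1 understates the change of low genes. The fit had 3 residual and 8.90 prior degrees of freedom. Of the genes, 23469 had no reads. edgeR (4.0.16) called 4778 genes on recovered reads, beside 4814 by limma; DESeq2 (1.42.0) was a further alternative. The steps were checked on simulated data. Exon lengths and coordinates are from GENCODE M21 (GRCm38), and promoters from RefSeq (GRCm38.p6).

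Members and lists were chosen with earlier results of these data known. Genes named are the members, the targeted genes, the 3 smallest adjusted p per list, other filament genes, and the 3 nearest patterns of Gfap, Vim, Nes, Nefl and Nefm; others were picked after their values were seen. One item that this rule names is left out of the text. The lists share Stat3, Osmr, Hspb1 and Dst. Libraries of a genotype differed beyond sampling noise.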

Additional observations from a re-analysis of the deposited data

How the results depend on the processing

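Over TMM scaling, pseudocounts of 0.5 and 5, no low-value filter, no batch term, a replicate block, edgeR, DESeq2, the November samples alone and each sample left out, 4 filament genes were called higher and 0 lower, except without THC 3, where 5 were (range 4 to 5). The log2 change was 1.71 to 2.31 for Gfap, 1.83 to 2.12 for Vim, 1.09 to 1.31 for Nes and 3.12 to 3.81 for Prph. Leaving out samples gave Synm -0.14 to 0.30 and Nefl 0.38 to 1.45. In the November samples alone Synm was -0.14 and Krt18 -0.39; leaving out THC 1 or TKO 1 gives the same values, as the batch term then absorbs the other February sample. The ranges over samples left out were -0.39 to 1.01 for Krt18, -0.061 to 0.28 for Krt10, -0.43 to 0.25 for Bfsp1, -0.24 to 0.016 for Iffo1, -0.11 to 0.12 for Stat3, -0.15 to 0.10 for Il6st, -0.22 to 0.16 for Slc1a3 and -0.084 to 0.11 for Sox9. Slc1a3 was -0.033 with edgeR and -0.012 with DESeq2. None of these passed the test in the main analysis, and the cause was not tested.

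Same-numbered samples correlated at 0.23, -0.11 and 0.14 in their deviations from the group means. With 3 samples per group these values cannot settle whether the numbers pair the samples. The replicate block called 4069 genes, beside 4814 without it, and 4 filament genes either way. The microglia markers called higher were 0 with no batch term and 6 with the block. Outside the 9 genes, a followed list gene lost its call in 165 combinations of gene and alternative and gained it in 14. The same gene was often counted under several alternatives. Followed genes were those called in the main analysis, the 3 smallest adjusted p per list, other filament genes and a few named ones. Other uncalled genes were not followed, so gains are undercounted and these numbers cannot be compared. Counts of 3 to 18 reads limit Nefh, and 6 to 8 reads per THC sample limit the fold of Prph.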
